A study of Homo sapiens with 6 samples.

Results

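The B-precursor lineage transcription factors described here are PAX5, EBF1, TCF3, LEF1, SOX4, BCL11A, FOXO1, FOXP1, MEF2C and ERG. They were taken by gene symbol from a table of 26364 genes, and all 10 had a row. REH, a long-established leukaemia line of human B-cell precursors, was exposed for 6 h to 50 µM S3I-201, a compound aimed at STAT3, or to DMSO, its solvent. There were 3 RNA-seq libraries with DMSO and 3 with S3I-201, from separate experiments by the series' design text, all grown in the same medium with serum. A single line and a single dose and time were studied, and only a table that pools the 6 libraries was analysed, so no factor has a value per library here.

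A B cell forms when a lymphoid progenitor shuts off other fates and opens the genes of the pre-B receptor, of antigen receptor rearrangement and of B-cell signalling. TCF3, which encodes the E proteins E12 and E47, acts early with FOXO1 to switch on EBF1, and EBF1 then switches on PAX5, which holds the cell in the B lineage. LEF1 and SOX4 bind DNA through an HMG box and support the survival and growth of early B cells, BCL11A and FOXP1 are needed for early B-cell development, MEF2C acts with EBF1 in B-cell gene activation, and ERG is an ETS factor of stem and progenitor cells that also acts in early B cells. Many of these genes are altered or misused in acute leukaemia.

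The comparison asks whether transcripts of these factors changed with the compound. Whether it lowered STAT3 activity in these cells was not tested here. LEF1 fell to 0.714-fold with S3I-201. Of the 9 factors with an adjusted p, it was the only factor that passed 0.05, as did 5.90% of all tested genes. ERG stood at 0.752-fold and did not pass. The core factors PAX5, TCF3 and FOXO1 had values of 0.90-fold, 0.931-fold and 0.962-fold and did not pass either, and EBF1 at 0.868-fold had no p-value. All 10 folds came from the authors' deposited table, and all 10 lay below 1. Of the tested genes at least as abundant as the least abundant factor, 61.7% also lay below 1. After subtracting the median of genes of similar abundance, 9 of the 10 factors had negative log2 values.

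The level of a gene is its mean normalized count over the 6 libraries, that is, read counts divided by a size factor for each library. The table does not say which group is the baseline of a fold change. Here DMSO was taken as the baseline, so that a negative value means lower with S3I-201, and if the authors used the other order all directions are inverted. The name of the comparison lists DMSO before S3I-201 and does not settle this. The error is an implied standard error (SE), the deposited log2 value, without its sign, over the normal deviate that matches its p-value, and the 95% intervals were built from it. The authors' deposited table appears to hold shrunken fold changes, because even a gene covered by 1 read in all has a log2 value between 0.033 and 0.042 in size. Libraries held about 6600000 to 14500000 counts, estimated from genes with few reads, so all 10 factors were well covered.

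Of the 9 factors with an adjusted p, 1 passed 0.05 and was lower, and 0 were higher. A second factor, ERG, had an unadjusted p under 0.05, which makes 2 in all. Counts at an unadjusted p, here and below, have no share over all tested genes beside them and cannot be read as an excess. Over all 11912 tested genes the share called was 5.90%, with 4.45% higher and 1.45% lower. Among tested genes at or above the mean of the least abundant factor it was 8.05%, with 5.53% higher and 2.52% lower. With 1 of 9 called (11.1%), the count of members is too small to be read against these shares. The median log2 fold change of the 10 factors was -0.16, against -0.02 over all tested genes. Abundant genes leaned to the lower side in general. Of the 3019 tested genes at or above the mean of the least abundant factor, 61.7% had negative values with a median of -0.05, against 53.6% negative over all tested genes.

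**Figure D1:**
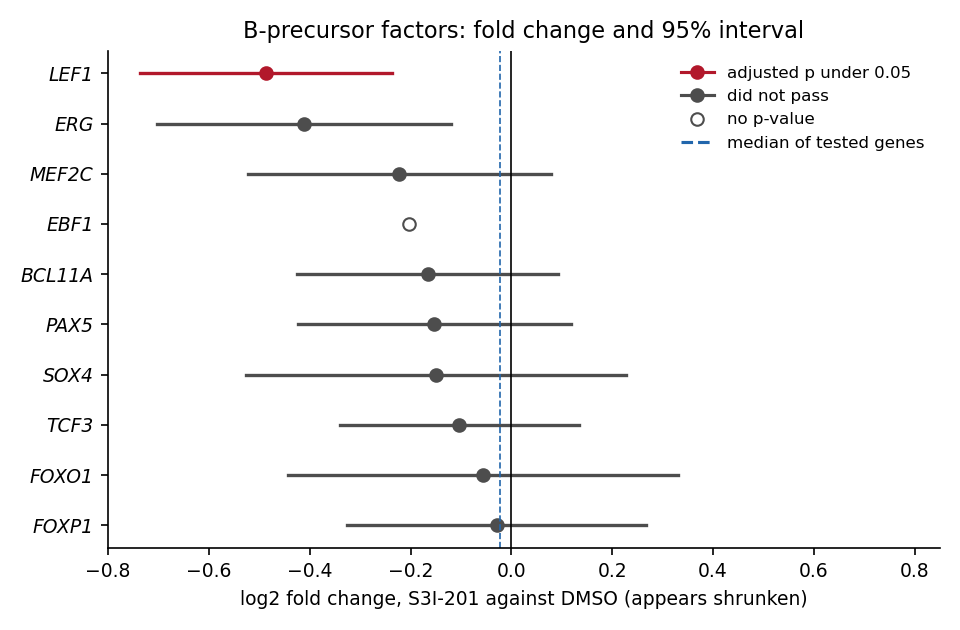
Log2 fold change of the 10 factors, S3I-201 against DMSO, on the horizontal axis, with the 95% interval from the implied SE as a line. LEF1 (red) passed an adjusted p of 0.05 and the other factors with a p-value (grey) did not. EBF1 (open point) has no p-value and therefore no interval, the dashed blue line is the median of tested genes, and only the intervals of LEF1 and ERG lie wholly below 0.

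Among the factors that start the B-cell programme, TCF3 was the most abundant by count per length. TCF3 encodes E proteins, which pair with each other and bind E-box sequences. Its mean normalized count was 8813 in the authors' deposited table, or 1556 per kb of exon. Split by the deposited fold change, that mean corresponds to 9130 in DMSO and 8496 in S3I-201. By the authors' deposited table TCF3 had a log2 fold change of -0.10 (95% interval -0.34 to 0.13, adjusted p = 0.775), with the smallest implied SE of the 9 factors, 0.12. With the abundance trend removed, that is, after subtracting the median of genes of similar abundance, the value of TCF3 was -0.03.

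FOXO1, a forkhead factor that is held out of the nucleus when PI3K and AKT are active, had 1484 mean normalized counts in the authors' deposited table. This corresponds to 1513 in DMSO and 1455 in S3I-201. By the authors' deposited table its log2 fold change was -0.06 (95% interval -0.44 to 0.33, adjusted p = 0.945). FOXO1 had the largest implied SE among the factors, 0.20, so its interval was wide and reached values on both sides of 0. The log2 value of FOXO1 was -0.02 with the abundance trend removed and -0.03 after subtracting the median of all tested genes.

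EBF1, the early B-cell factor that opens closed chromatin at B-lineage genes, had 2992 mean normalized counts in the authors' deposited table, or 3203 in DMSO and 2781 in S3I-201 when split by the fold change. The authors' deposited table gives EBF1 a log2 fold change of -0.20 and no p-value. Such a missing p-value was found for 83 genes with a fold change, 56 of them at or above the mean of the least abundant factor (1.82% of the genes there). Why EBF1 lacks a p-value is not stated, and nothing was tested for this factor. With no value per library, it cannot be seen whether a single library drives the fold of EBF1 or of another gene without a p-value.

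PAX5, the factor that commits cells to the B lineage, had 8093 mean normalized counts in the authors' deposited table. Split by the fold change this gives 8521 in DMSO and 7665 in S3I-201. Its log2 fold change was -0.15 by the authors' deposited table (95% interval -0.42 to 0.12, adjusted p = 0.686), and PAX5 had -0.08 with the abundance trend removed. The 95% intervals of TCF3, FOXO1 and PAX5 did not reach a 1.5-fold decrease, which is -0.58 on the log2 scale, although on fold changes that appear shrunken.

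LEF1, the nuclear partner of beta-catenin that also acts without it in early B cells, was the most abundant of the 10 factors. Its mean normalized count was 10676 in the authors' deposited table, or 2545 per kb of exon, and it ranked 81 by count in the whole table. Split by the fold change, the mean corresponds to 12458 in DMSO and 8895 in S3I-201, a difference of -3563 normalized counts. LEF1 fell by 0.49 on the log2 scale by the authors' deposited table (implied SE 0.13, 95% interval -0.74 to -0.24, adjusted p = 0.00440). The decrease was larger than the error between libraries in the authors' fit, but it lay just short of a log2 size of 0.5, so that LEF1 would not be called if that minimum were also asked for. Among the 173 lower genes LEF1 was number 146 by size of log2 fold change but number 2 by mean normalized count, behind PTMA at 27376 in the authors' deposited table.

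SOX4 belongs with LEF1 to the HMG-box factors and is known to support the survival of leukaemic B precursors. Its mean normalized count was 1785 in the authors' deposited table, or 1877 in DMSO and 1692 in S3I-201. The log2 fold change was -0.15 by the authors' deposited table (95% interval -0.53 to 0.23, adjusted p = 0.803). With an implied SE of 0.19, a deposited log2 change of SOX4 would have had to reach 0.57 in size to pass, so a change as large as that of LEF1 would not have been called for it.

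ERG, an ETS factor of stem and progenitor cells, had 3013 mean normalized counts in the authors' deposited table, or 3440 in DMSO and 2586 in S3I-201. Its log2 fold change was -0.41 by the authors' deposited table (implied SE 0.15, 95% interval -0.70 to -0.12, adjusted p = 0.0820). The value needed to pass was 0.44 in size for ERG, just beyond the value found. MEF2C, a MADS-box factor with a part in B-cell survival and leukaemia, had a mean of 6088 and a log2 value of -0.22 by the authors' deposited table (95% interval -0.52 to 0.08, adjusted p = 0.540), or 6555 in DMSO and 5620 in S3I-201.

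BCL11A, a zinc finger repressor, and FOXP1, a forkhead repressor, were the weakest of the 10. BCL11A had a mean normalized count of 1036 and a log2 value of -0.17 by the authors' deposited table (95% interval -0.43 to 0.09, adjusted p = 0.622), or 1096 in DMSO and 977 in S3I-201. FOXP1 had a mean of 965 and a log2 value of -0.03 by the authors' deposited table (95% interval -0.33 to 0.27, adjusted p = 0.961), or 975 in DMSO and 955 in S3I-201. The negative sign of FOXP1 was lost when the abundance trend was removed, where its log2 value became 0.02, and the value was -0.01 after subtracting the median of all tested genes.

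**Figure D2:**
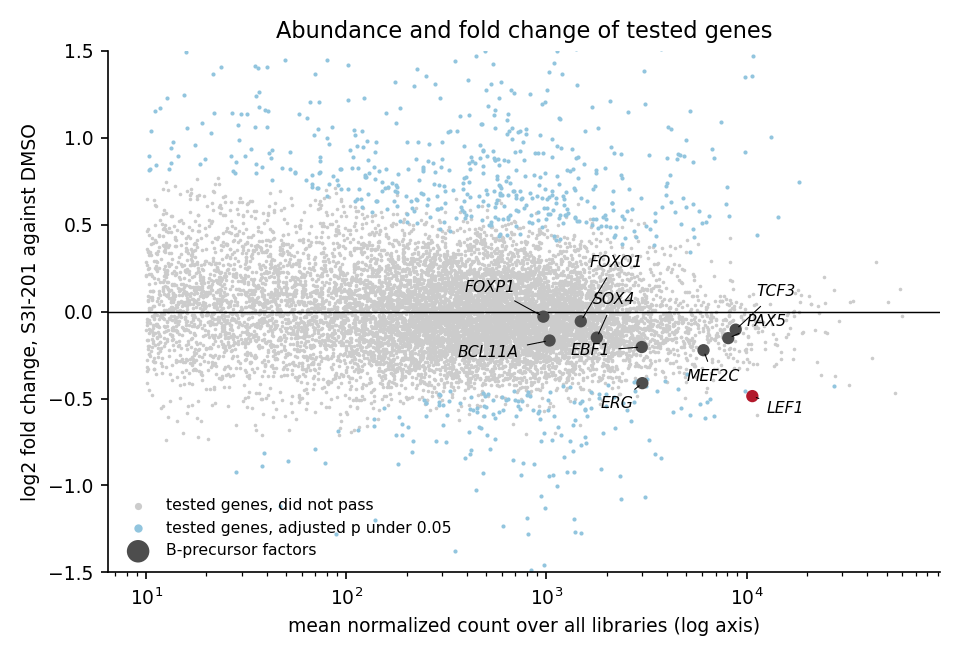
Mean normalized count (log axis) against log2 fold change for the tested genes, with the 10 factors as large points, LEF1 in red and the others in dark grey (EBF1 has no p-value). Small points are tested genes, light blue where the adjusted p was under 0.05. The factors lie in the abundant part of the table, from a mean of 965 for FOXP1 to 10676 for LEF1, and 51 tested genes beyond 1.5 in size are not drawn.

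The 10 factors together held 0.393% of all normalized counts, and LEF1, TCF3, PAX5 and MEF2C held 74.9% of this share. Per kb of merged exon in GENCODE 29, the order was LEF1 at 2545, TCF3 at 1556, PAX5 at 939, MEF2C at 704, EBF1 at 568, ERG at 559, SOX4 at 305, FOXO1 at 259, FOXP1 at 78.7 and BCL11A at 70.0 normalized counts per kb. The highest level per kb was 36.3 times the lowest. EBF1 and ERG stood close together, as did FOXP1 and BCL11A, and no spread over libraries was at hand to tell such neighbours apart. The per-kb levels of BCL11A and FOXP1 rest on long merged exons of 14.8 and 12.3 kb, so they would be higher if only a short isoform is used.

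Each factor was set beside its own gene family, since a paralog can stand in for a family member. REH cells carried PAX5 almost alone among PAX genes, where it held 99.99% of the summed level per kb. PAX2 was covered by 2 reads over all 6 libraries and PAX3 and PAX7 by 1 read each, while PAX1, PAX4, PAX6, PAX8 and PAX9 were listed at 0 in the authors' deposited table. EBF1 held 92.8% of the EBF level per kb, ahead of EBF4 at 42.3 per kb, while EBF3 had a mean of only 7.11 and EBF2 was listed at 0 in the authors' deposited table. LEF1 held 94.7% of the TCF/LEF level per kb. TCF7L2 followed at 140 normalized counts per kb, TCF7 had a mean of only 2.88 in the authors' deposited table, and TCF7L1 was covered by 1 read.

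Other families were shared more evenly. TCF3 held 76.7% of the E protein level per kb, with TCF12 at 327 and TCF4 at 145 per kb. SOX4 at 305 per kb was followed by SOX12 at 190 and SOX11 at 60.0 per kb. MEF2C at 704 per kb stood beside MEF2D at 483 and MEF2A at 228, while MEF2B was covered by 2 reads. FOXO1 held 58.8% of the FOXO level per kb and BCL11A 79.8% of the BCL11 level. In 2 families a paralog was above the factor, FOXP4 at 229 per kb against FOXP1 at 78.7, and FLI1 at 908 per kb against ERG at 559. FOXP3 had a mean of 8.09 and FOXP2 was covered by 6 reads, and FEV was listed at 0 in the authors' deposited table.

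**Figure D3:**
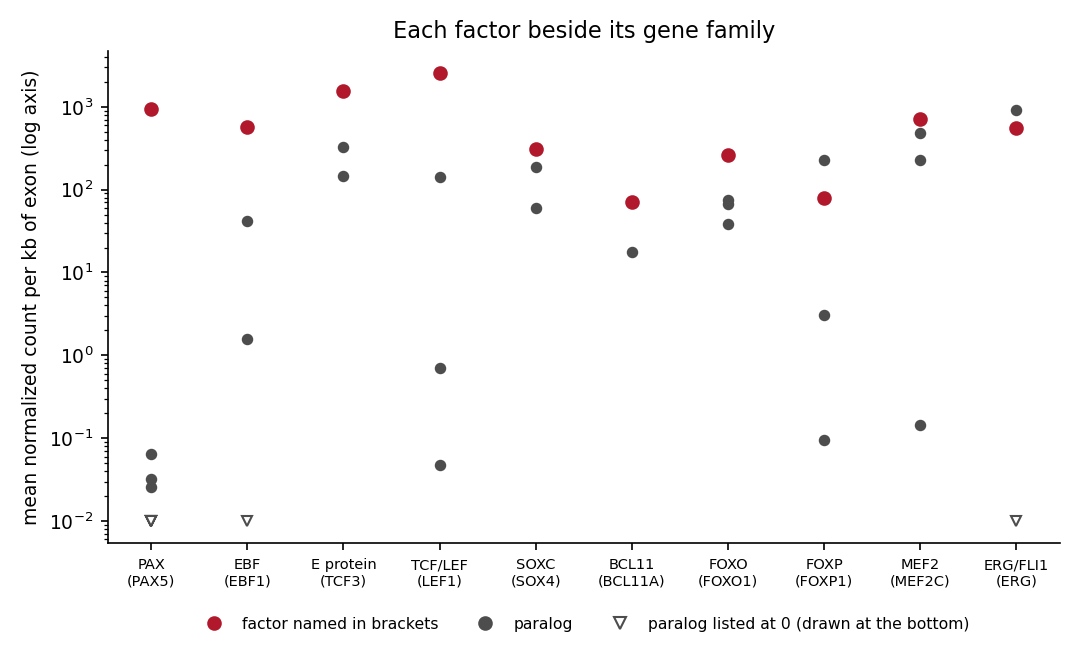
Mean normalized count per kb of exon (log axis) for each of the 10 gene families, with the factor in red and its paralogs in grey. Open triangles at the bottom are paralogs listed at 0. PAX5, EBF1 and LEF1 stand far above their paralogs, while ERG lies below FLI1 and FOXP1 below FOXP4.

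Of 30 paralogs, 14 had an adjusted p, too few to be read against the 5.90% of all tested genes that passed. On the adjusted p of the authors' DESeq2 run 0 of the 14 passed 0.05, with 2 at an unadjusted p under 0.05. These were SOX12 at -0.37 (adjusted p = 0.261) and FOXO3 at 0.44 (adjusted p = 0.161) on the log2 scale by the authors' deposited table. The other FOXO genes had values above 0 where FOXO1 had -0.06, with 0.30 for FOXO4 and 0.13 for FOXO6 in the authors' deposited table, and neither passed. In the MEF2 family MEF2A had 0.19 and MEF2D 0.13 in the authors' deposited table, against -0.22 for MEF2C. TCF7L2, the only other TCF/LEF gene with an adjusted p, had 0.08 in the authors' deposited table (95% interval -0.27 to 0.43, adjusted p = 0.913). EBF4 had 0.01 (adjusted p = 0.988), TCF12 0.14 (adjusted p = 0.810) and TCF4 -0.04 (adjusted p = 0.956) by the authors' deposited table. SOX11 had -0.24 (adjusted p = 0.572), BCL11B -0.06 (adjusted p = 0.954), FOXP4 0.24 (adjusted p = 0.423) and FLI1 -0.10 (adjusted p = 0.838) in the same table of the authors. Whether a factor and its paralog differ in their change was not tested, because the table holds no values from which the error of that difference could be had.

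Other genes around the factors were described by lists of partners, inhibitors, targets, other B-lineage factors and antisense or intronic transcripts. Of 89 genes in these lists 86 had a row, and 66 had an adjusted p. Of the 66, 11 passed (16.7%, against 5.90% of all tested genes), 7 higher and 4 lower. The lists were chosen with earlier results of these data known. A share called in a list, here or below, therefore cannot be read as an excess over all tested genes. The ID proteins bind E proteins such as those of TCF3 and keep them off DNA. ID2 rose 2.48-fold, a log2 value of 1.31 by the authors' deposited table (implied SE 0.16 and adjusted p = 2.10e-13), at a mean of 276. ID3 was the most abundant ID gene, at 851 normalized counts per kb against 129 for ID2, and had a log2 value of 0.07 by the authors' deposited table (adjusted p = 0.922). ID1 had a mean of only 3.79 and ID4 was listed at 0 in the authors' deposited table.

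Other transcription factors of the B lineage went both ways, with 4 of 16 tested lower, 1 higher and 11 not past (1.45% of all tested genes were lower and 4.45% higher), and a median log2 fold change of -0.00. IKZF1, the lymphoid factor Ikaros, had -0.74 (adjusted p = 4.39e-05) and ETS1, an ETS factor of lymphocytes, had -0.57 (adjusted p = 0.0101) by the authors' deposited table. MYB, a factor of haematopoietic progenitors, had -0.51 (adjusted p = 0.0141) and ZEB2, a zinc finger repressor, had -0.48 (adjusted p = 0.0275) by the authors' deposited table. Neither MYB (adjusted p = 0.0508) nor ZEB2 (adjusted p = 0.0585) passed with the abundance trend removed. POU2F2, the octamer factor OCT2 of B cells, was higher at 1.22 with a mean of 101 in the authors' deposited table (adjusted p = 6.12e-05). SPI1 at 0.12, RUNX1 at 0.03, POU2AF1 at 0.15 and BACH2 at -0.07 missed the threshold in the authors' deposited table.

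Genes known to be switched on by PAX5, EBF1 or E proteins had a median log2 fold change of -0.17. On the adjusted p of the authors' DESeq2 run, 0 of 13 tested passed (5.90% of all tested genes did), with 4 at an unadjusted p under 0.05. CIITA, the master regulator of MHC class II genes, had -0.39 (adjusted p = 0.0949) and DNTT, the terminal transferase of antigen receptor rearrangement, had -0.31 (adjusted p = 0.162) by the authors' deposited table. BLNK, a signalling adaptor, had -0.33 (adjusted p = 0.180) and RAG1, a recombinase subunit, had -0.29 (adjusted p = 0.301) by the authors' deposited table. VPREB1, CR2 and MS4A1 were listed at 0, and VPREB3 at -0.25 had no p-value in the authors' deposited table. Of genes that PAX5 is known to repress, 0 of 3 tested passed on the adjusted p of the authors' DESeq2 run, with 1 at an unadjusted p under 0.05. This was NOTCH1 at 0.42 (adjusted p = 0.225) by the authors' deposited table, while FLT3 had -0.14 (adjusted p = 0.721) and CSF1R 0.06 (adjusted p = 0.947).

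Of 11 listed genes downstream of LEF1 in WNT signalling, 4 had an adjusted p. On the adjusted p of the authors' DESeq2 run 0 passed (5.90% of all tested genes did), with 1 at an unadjusted p under 0.05. RNF43, a WNT receptor ubiquitin ligase, had -0.31 (adjusted p = 0.232), LGR5 -0.28 (adjusted p = 0.678), ZNRF3 -0.21 (adjusted p = 0.623) and AXIN2 0.29 (adjusted p = 0.539) by the authors' deposited table. MYC, at a mean of 4679, had -0.57 and no p-value in the authors' deposited table, while SP5 and TNFRSF19 were listed at 0. Cofactors of LEF1 had 0 of 8 past on the adjusted p of the authors' DESeq2 run, with 1 at an unadjusted p under 0.05, the corepressor TLE4 at 0.49 (adjusted p = 0.144) by the authors' deposited table. Beta-catenin itself, CTNNB1, had 0.03 (95% interval -0.26 to 0.32, adjusted p = 0.958) in the authors' deposited table. The corepressor TLE1 had -0.21 (adjusted p = 0.530) the beta-catenin coactivator BCL9 -0.22 (adjusted p = 0.539) and its partner PYGO2 -0.07 (adjusted p = 0.864) by the authors' deposited table.

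Genes known as FOXO1 targets had 5 of 17 tested higher, 0 lower and 12 not past, where 4.45% of all tested genes were higher and 1.45% lower, with a median log2 fold change of 0.16. GADD45A, a stress gene of growth arrest, reached 1.96 (implied SE 0.22, adjusted p = 1.31e-15) and KLF2, a Kruppel-like factor of quiescence, 1.54 (implied SE 0.27, adjusted p = 7.15e-07) by the authors' deposited table. SESN1, a sestrin, stood at 1.33 (adjusted p = 1.43e-08), IRS2, an adaptor of the insulin receptor, at 0.89 (adjusted p = 2.52e-04) and FBXO32, a ubiquitin ligase subunit, at 0.89 (adjusted p = 0.0163) by the authors' deposited table. KLF2 and FBXO32 were weakly covered, with means of 68.4 and 31.3 in the authors' deposited table. GADD45A and SESN1 are also known targets of p53, and KLF2 also responds to other signals. B-lineage genes of the same list did not pass, with -0.09 for IL7R, -0.29 for RAG1 and 0.28 for RAG2 in the authors' deposited table. Of the histone deacetylases and CABIN1 that hold MEF2 factors back, 0 of 5 passed on the adjusted p of the authors' DESeq2 run. Over all tested genes 5.90% passed, and 0 of the 5 had an unadjusted p under 0.05. HDAC5 had 0.24 (adjusted p = 0.331), HDAC9 -0.41 (adjusted p = 0.353), CABIN1 -0.23 (adjusted p = 0.386) and HDAC7 -0.11 (adjusted p = 0.753) by the authors' deposited table.

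**Figure D4:**
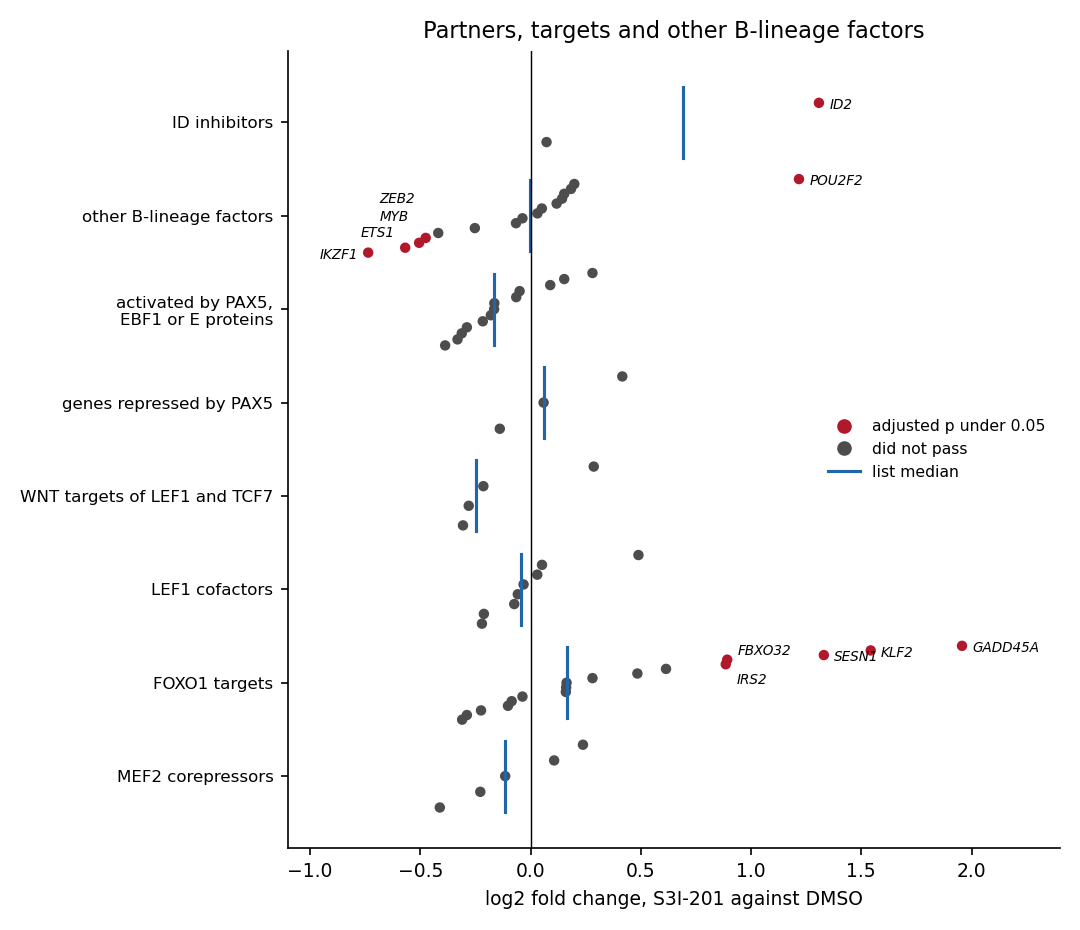
Log2 fold change of tested genes in the lists of inhibitors, other B-lineage factors, targets and cofactors, with genes past an adjusted p of 0.05 in red and list medians as blue lines. ID2 at 1.31 and POU2F2 at 1.22 stand to the right, as do 5 FOXO1 targets, while IKZF1, ETS1, MYB and ZEB2 are the 4 lower genes.

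The cells carried the markers of a B precursor. Of 12 such markers 11 were above 0, with DNTT highest by count at a mean of 13622 in the authors' deposited table, while VPREB1 was listed at 0. On the adjusted p of the authors' DESeq2 run 0 of 10 passed (5.90% of all tested genes did), with 3 at an unadjusted p under 0.05. T-cell markers summed to a mean of 0.626, with CD3D, CD3E, CD3G and CD2 listed at 0, and the erythroid markers HBA1 and HBB were listed at 0 in the authors' deposited table. Myeloid markers were led by MPO at a mean of 978 with a log2 fold change of -0.16 (adjusted p = 0.677) by the authors' deposited table. CSF1R at a mean of 127 and ITGAM at 90.4 each had a log2 value of 0.06 in the authors' deposited table and did not pass. NKG7 was the highest NK cell marker at a mean of 13.7, and COL1A1 the highest stromal or epithelial marker at 40.6. Of 4 plasma cell markers, JCHAIN and TNFRSF17 were listed at 0, and SDC1 had a mean of 79.3 and a log2 value of 0.23 by the authors' deposited table (adjusted p = 0.763). PRDM1, the repressor Blimp-1 that turns off PAX5 in plasma cells, had a mean of 29.7 and a log2 value of 1.14 by the authors' deposited table (adjusted p = 8.75e-04). Its part in the values of PAX5 was not tested.

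On hg38 the genes lie on chromosome 9 from 36833269 to 37034268 for PAX5, on chromosome 5 from 158695920 to 159099916 for EBF1 and from 88717117 to 88904105 for MEF2C, and on chromosome 19 from 1609292 to 1652615 for TCF3. LEF1 spans 108047548 to 108168932 on chromosome 4, SOX4 21593751 to 21598619 on chromosome 6, BCL11A 60450520 to 60553924 on chromosome 2 and FOXO1 40555667 to 40666641 on chromosome 13. FOXP1 spans 70954708 to 71583978 on chromosome 3 and ERG 38367261 to 38661783 on chromosome 21. The library method does not mark the strand, so a read in a stretch used on both strands cannot be told apart by its gene of origin. LEF1-AS1 shares 279 of the 4195 exon bases of LEF1 and had a log2 fold change of -0.41 at a mean of 59.3 in the authors' deposited table (adjusted p = 0.420). MEF2C-AS1 shares 362 of the 8644 exon bases of MEF2C and had a mean of 10.3 in the authors' deposited table. Both antisense genes were far weaker by count than their partners. Opposite-strand genes with no value here also share exon bases, 80 with PAX5 (AL161781.2), 168 with SOX4 (AL512380.2), 57 with FOXP1 (AC097634.3) and 208 with MEF2C (MEF2C-AS2). FOXP1 shares 2474 of its 12263 exon bases with a gene on its own strand, AC097634.4, so its count is uncertain.

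RefSeq start windows of the 10 genes were searched for STAT3-type and B-lineage motifs, since the compound is aimed at STAT3. The table of RefSeq starts (GRCh38.p14) matched all 10 symbols with 28 windows of 250 bases before a start, between 1 and 7 per gene. The STAT motif TTCNNNGAA, which reads the same on both strands, was in 1 of the 28 windows (3.57%), against 6.57% of all 35116 windows. The E-box CAGGTG, a form bound by E proteins, was in 6 windows (21.4%) of FOXP1, MEF2C and ERG, against 17.5% of all windows, counting both strands. The EBF motif (TCCC and GGGA with 2 bases between), the TCF/LEF motif CTTTGAT and the ETS motif CCGGAAGT were in 0 of the 28, against 1.06%, 2.26% and 3.42% of all windows. The FOXO motif GTAAACA and the MEF2 motif (CTA and TAG with 4 bases between) were each in 1 window, both of FOXP1, against 2.98% and 2.36% of all windows. Windows of a gene can overlap, as do 2 of ERG that share an E-box, and a match describes letters only. The outermost starts of LEF1, EBF1, ERG and FOXP1 are not among the windows. Their nearest listed starts lie 2631, 1960, 1116 and 250 bases inside the gene, in that order.
The match to the STAT motif and an E-box match in MEF2C and in ERG are shown with their flanks, matches in capitals, each on the minus strand:
FOXP1 STAT, chr3:71245108-71245137: cacaaaaggcTTCCCGGAAaataagtgtca
MEF2C E-box, chr5:88904152-88904181: gagtgacagaaaCAGGTGcacctcggcctg
ERG E-box, chr21:38660800-38660829: cgcacccacgcgCACCTGgccacgcgcgtg
The FOXP1 match begins 50 bases before a start that lies 338901 bases inside the gene, and FOXP1 had the smallest log2 fold change of the 10 in size. All 250 bases of that FOXP1 window lie in annotated exons of FOXP1, and 152 of the 250 bases of the MEF2C window lie in exons of MEF2C. The whole ERG window, chr21:38660668-38660917 on the minus strand, is shown because ERG had the second largest decrease in value and its window overlaps no annotated exon of ERG in GENCODE 29, although its start lies 1116 bases inside the gene:
ERG: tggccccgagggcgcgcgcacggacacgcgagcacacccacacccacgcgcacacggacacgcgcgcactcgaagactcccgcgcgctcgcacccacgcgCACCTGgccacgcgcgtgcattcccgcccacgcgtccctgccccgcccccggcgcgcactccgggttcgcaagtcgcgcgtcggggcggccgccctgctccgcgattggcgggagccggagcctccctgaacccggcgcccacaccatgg
It held 77.2% G and C, against a median of 58.0% over all windows, and the E-box is 150 bases before the start. The other windows of ERG held 36.4%, 46.4% and 44.8% G and C.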

How the data were processed

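RNA was taken from 3 DMSO and 3 S3I-201 libraries of REH cells, made by a TruSeq RNA v2 method per the labels' protocols. The submitters' processing notes name hg38, bcl2fastq 2.19, Trimmomatic, Bowtie2, Picard, featureCounts and DESeq2, with no role. For annotation, strand setting and model formula the sources used here give nothing. The authors computed the mean normalized count (a signal, counts over size factors), log2 fold change, p-value and adjusted p over the 6 pooled libraries, per the file headers, whose names are those of DESeq2. The adjusted p is given for 11912 genes with a mean of at least 10.0, and Benjamini-Hochberg values recomputed here came within 0.675% of it. The 9307 genes with a mean of 0 have no fold change.

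From these values the implied SE, its interval, levels per kb of merged GENCODE 29 exon and the split of each mean into 2 group levels (6 libraries, equal groups, ratio equal to the deposited fold) were computed in Python 3.11.15 with scipy 1.17.1. Depth came from 6 values that recur in genes with a single read, whose sums (tolerance 2e-07) matched 100% of 2067 genes below a mean of 0.6. Such sums also gave the reads behind weak paralogs. The scripts were tested on simulated data. P-values cover the spread between these libraries only. Named were all members, all paralogs where measured, and in each list the genes that passed and, where these were under 4, those with the next smallest adjusted p up to 4 in all. SPI1, RUNX1, POU2AF1, BACH2, IL7R and RAG2 were added after their values were seen. So were ID1, ID4, CTNNB1, MYC, VPREB3, PTMA, MPO, ITGAM, NKG7, COL1A1, PRDM1, SDC1, the overlapping genes and the genes listed at 0. The members and lists were chosen with earlier results of these data known. Alternatives were other thresholds, a minimum fold, other sets for the adjustment, removal of the abundance trend in 20 bins and subtraction of the median of all tested genes.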

Additional observations from a re-analysis of the deposited data

How the results depend on the processing

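The count of 1 factor past the threshold was 2 at an adjusted p of 0.1, with ERG added, and 0 with a minimum log2 fold change of 0.5 in size, since LEF1 had -0.49. LEF1 was called under the other alternatives, with an adjusted p from 0.00405 to 0.0232. Its log2 value lay between -0.49 and -0.42 under them. ERG ranged from 0.0761 to 0.187 in adjusted p. FOXP1 turned to 0.02 with the abundance trend removed, and the other 37 combinations of a factor with trend removal, subtraction of the median of all tested genes or another set for the adjustment kept direction and side of the 0.05 threshold. At a threshold of 0.01, 442 genes in place of 703 passed, and 7 in place of 11 genes of the lists around the factors. With the adjustment over genes with a mean of at least 100, 9 genes of these lists passed, 5 higher and 4 lower. With the abundance trend removed 9 passed, 7 higher and 2 lower. The median log2 value of the 10 factors was -0.16 as deposited, -0.11 with the abundance trend removed, where 9 of 10 were negative, and -0.14 with the median of all tested genes subtracted. No paired analysis was possible because the table pools the libraries and holds no value per library, and for the same reason no replicate could be left out and edgeR was not run. All 10 factors lay well above the abundance filter, while paralogs with 1 or 2 reads cannot show a change.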
